A study of Mus musculus with 18 samples.

Results

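The midbrain dopaminergic transcription factors Nr4a2, Pitx3, En1, En2, Foxa1, Foxa2, Lmx1a, Lmx1b and Sox6 were followed across mouse substantia nigra RNA libraries. These 9 genes were chosen by symbol and not by a rule on their values, though earlier results of these data were known. Each is 1 of the 55269 genes in the deposited table. All 9 reached a normalised read count of 10 in 6 or more of the 18 libraries and were tested with the other genes above that level, 19442 in all. The libraries were made from poly-A RNA of the substantia nigra of 3-month-old mice, about a month after virus was given. The intact group (6 mice) is labelled WT and received no virus that the labels name, the AAV-GFP group (6 mice) overexpressed green fluorescent protein from an adeno-associated virus (AAV), and the AAV-SIRT3 group (6 mice) overexpressed SIRT3, a deacetylase of mitochondria, from an AAV. The promoter and serotype of the virus and the side injected are not given in the labels, so the cells that carried it are not known here.

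Midbrain dopaminergic neurons arise from the ventral midline of the embryonic midbrain and keep much of their regulatory network for life. Foxa1, Foxa2, Lmx1a and Lmx1b act early, in the progenitors, Nr4a2 (also called Nurr1) and Pitx3 switch on the dopamine genes in the newborn neurons, and En1 and En2 keep the neurons alive. In the adult, Sox6 marks the neurons of the substantia nigra pars compacta, while Otx2 marks part of the neighbouring ventral tegmental area. Several of the 9 genes are also read in other cells, Sox6 in oligodendrocyte precursors and Nr4a2 in subiculum and other forebrain neurons, so a bulk library does not report on dopaminergic neurons alone.

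In GENCODE M21 (GRCm38) Nr4a2 lies at chr2:57106830-57124003 on the minus strand, Pitx3 at chr19:46135685-46148326 on the minus strand, and En1 at chr1:120602418-120607992 on the plus strand. En2 lies at chr5:28165694-28172166 on the plus strand, Foxa1 at chr12:57540628-57546916 on the minus strand, and Foxa2 at chr2:148042877-148046969 on the minus strand. Lmx1a lies at chr1:167689237-167848741 on the plus strand, Lmx1b at chr2:33560965-33640511 on the minus strand, and Sox6 at chr7:115470872-116038796 on the minus strand. The exons of Pitx3 overlap those of Elovl3, a fatty acid elongase on the other strand. The strand setting of the authors' counting is not given in the sources used here, so reads of Pitx3 and Elovl3 may not have been told apart. En2, Lmx1b and Sox6 have opposite-strand genes within their span whose exons do not overlap theirs.

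RefSeq (GRCm38.p6) gave 15 windows of 250 bases upstream of a start for 8 of the 9 genes. These windows were searched on both strands for AAAGGTCA, the element bound by Nr4a receptors, TGTTTAC for Foxa factors, TAATCC for Pitx factors, TAATTA for En and Lmx1 homeodomains, and ACAATG for Sox factors. Of all 32851 RefSeq windows, 1.34% hold the first of these motifs, 3.17% the second, 6.25% the third, 4.84% the fourth and 10.7% the fifth. Of the 15 windows of the factors, 6 hold a motif: those of Nr4a2 and Foxa1 and windows 2, 3, 5 and 6 of Sox6. The share of all windows that hold any of the 5 motifs is not given here, so the 6 of 15 cannot be set against it. Below are the windows of Nr4a2 (chr2:57124004-57124253, minus strand), Foxa1 (chr12:57546112-57546361, minus strand) and the second of 6 windows of Sox6 (chr7:116031048-116031297, minus strand), shown because each holds a motif of one of the families studied, in capitals. The windows of En1 (chr1:120602237-120602486, plus strand) and Lmx1b (chr2:33641099-33641348, minus strand) are shown because their transcripts varied together between mice.
Nr4a2: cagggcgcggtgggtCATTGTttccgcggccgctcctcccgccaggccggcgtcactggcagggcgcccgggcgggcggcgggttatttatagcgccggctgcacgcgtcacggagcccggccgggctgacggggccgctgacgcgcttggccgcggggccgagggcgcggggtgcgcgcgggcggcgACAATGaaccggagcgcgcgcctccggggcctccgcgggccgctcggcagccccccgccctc
Foxa1: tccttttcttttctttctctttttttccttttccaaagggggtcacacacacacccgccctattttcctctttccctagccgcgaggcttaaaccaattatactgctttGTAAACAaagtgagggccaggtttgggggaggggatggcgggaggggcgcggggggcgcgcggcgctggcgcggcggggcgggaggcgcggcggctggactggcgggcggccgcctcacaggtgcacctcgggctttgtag
Sox6: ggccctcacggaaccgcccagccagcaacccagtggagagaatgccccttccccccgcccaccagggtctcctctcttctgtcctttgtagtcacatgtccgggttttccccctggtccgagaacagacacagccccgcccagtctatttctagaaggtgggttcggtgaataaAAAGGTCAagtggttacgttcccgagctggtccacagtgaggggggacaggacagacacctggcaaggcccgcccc
En1: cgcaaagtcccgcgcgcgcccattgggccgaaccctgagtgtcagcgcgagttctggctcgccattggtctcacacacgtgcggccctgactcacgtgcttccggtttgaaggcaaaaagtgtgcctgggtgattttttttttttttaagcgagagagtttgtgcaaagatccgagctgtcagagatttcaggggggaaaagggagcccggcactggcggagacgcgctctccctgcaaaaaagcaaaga
Lmx1b: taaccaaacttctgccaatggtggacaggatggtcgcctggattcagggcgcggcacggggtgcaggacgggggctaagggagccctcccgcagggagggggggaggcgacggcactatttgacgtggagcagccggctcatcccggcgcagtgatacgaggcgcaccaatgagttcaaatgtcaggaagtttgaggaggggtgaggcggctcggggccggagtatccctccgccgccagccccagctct
The Nr4a2 window is 80% G and C with 44 CG pairs, against medians of 52.4% and 6 pairs over all windows, and holds the Sox motif once on each strand, first at base -235 from the start. The Foxa1 window holds the Foxa motif on the reverse strand at base -141, and the Sox6 window the Nr4a element at base -76. No window of En1 or Lmx1b held any of the 5 motifs.

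Reads assigned to genes ran from 47182420 to 64728400 per library. All 45 pairs of libraries within a group differed by more than counting noise (chi-square per degree of freedom 8.05 to 36.3), and none was merged with another. The labels give 6 mice per group, and p-values measure the spread between these mice. The defining dopaminergic markers Th, Slc6a3, Slc18a2 and Ddc were present in every library, with summed normalised reads from 23759 to 34824 in intact mice, 18211 to 26518 in AAV-GFP and 24274 to 29078 in AAV-SIRT3. Sirt3, the gene the virus carried, was read at 1824 ± 66.3 (SD, n = 6) in intact mice, 1775 ± 92.4 in AAV-GFP and 1937 ± 79.4 in AAV-SIRT3 and did not pass the test between AAV-SIRT3 and AAV-GFP (log2 fold change 0.13, limma adjusted p = 0.183), so its transcript level checks the labels only weakly. The summed level of 6 thalamus markers (Prkcd, Lef1, Tcf7l2, Rora, Plekhg1 and Synpo2, none at 0) ran from 28145 to 68130 in intact against 55192 to 64372 in AAV-GFP and 50941 to 72237 in AAV-SIRT3. Intact replicates 1, 3 and 5 had thalamus scores (mean log2 difference of the markers from the intact mean) of -0.55, -0.52 and -0.43, and the other 15 libraries had scores of 0.28 or more. Intact replicate 2 and AAV-GFP replicate 5 had high choroid plexus markers, with sums of 49987 and 44358 against group medians of 2242 and 1778.

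Values of the factors are normalised read counts. For levels compared between genes they were divided by the length of the gene's exons. On that scale Nr4a2, an orphan nuclear receptor, was the most abundant factor in intact mice at 279 ± 40.2 normalised reads per kb (SD, n = 6). En1 followed at 216 ± 80.2, En2 at 105 ± 29.5, Foxa1 at 103 ± 17.7 and Sox6 at 90.7 ± 5.55. Lmx1b at 74.7 ± 23.3, Foxa2 at 65.0 ± 14.2, Lmx1a at 58.3 ± 10.4 and Pitx3 at 53.7 ± 15.1 were the lowest. Every neighbouring pair in this order overlapped in the intact libraries, so the order of neighbours is not resolved by the spread between mice. In AAV-GFP the lowest Nr4a2 library, at 219.9 per kb, lay above the highest En1 library, at 187 per kb. In AAV-SIRT3 the lowest En1 library, at 176 per kb, lay above the highest library of Foxa1, the next gene, at 115 per kb. The level of Sox6 depends on which exons are counted, since its annotated exons cover 14832 bases and its longest transcript 8668, and over the longest transcript it stood at 155 per kb, between En1 and Foxa1.

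**Figure D1:**
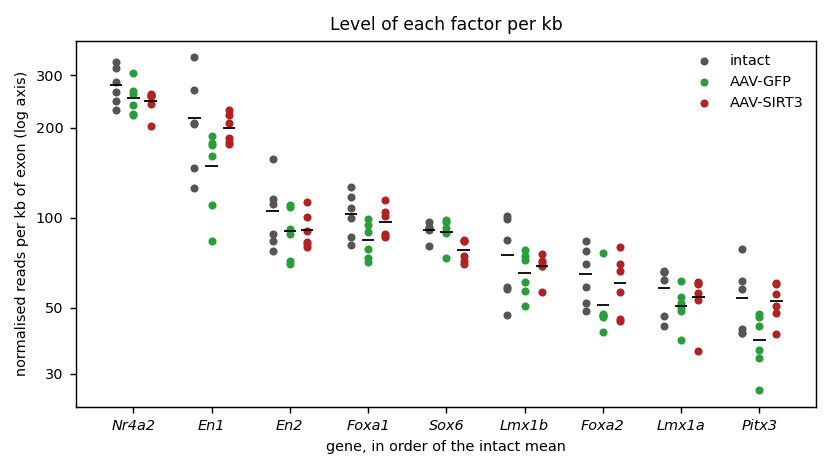
Normalised reads per kb of exon (log axis) for the 9 factors, ordered by the intact mean, with 1 point per library and a bar at each group mean. Nr4a2 and En1 stand above the other 7 factors in mean level, and the points of neighbouring genes overlap in intact mice.

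Nr4a2 and Pitx3 activate Th and the dopamine transporters in maturing neurons. Nr4a2 had a lowest, median and highest value of 931, 1113 and 1350 normalised reads in intact mice, 893, 1010 and 1241 in AAV-GFP, and 824, 1036 and 1055 in AAV-SIRT3. The groups overlapped, and AAV-SIRT3 replicate 6 was the lowest of all 18 libraries. Pitx3, a homeodomain factor needed for nigral neurons, had 62.5, 76.3 and 120 in intact mice, 40.5, 60.7 and 72.5 in AAV-GFP, and 62.5, 81.0 and 92.3 in AAV-SIRT3. The AAV-GFP values lay mostly below the others, and AAV-GFP replicate 5 was the lowest.

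En1 and En2 are the engrailed homeodomain factors. En1 had a lowest, median and highest value of 329, 541 and 902 normalised reads in intact mice, 219, 442 and 491 in AAV-GFP, and 462, 514 and 603 in AAV-SIRT3. Its spread between mice was the widest of the 9 factors in intact and AAV-GFP, with a coefficient of variation of 37.1% and 28.3%, and 11.4% in AAV-SIRT3. En2 had 275, 353 and 555 in intact mice, 249, 318 and 390 in AAV-GFP, and 282, 306 and 399 in AAV-SIRT3. Intact replicate 1 was the highest of all libraries for both genes, and AAV-GFP replicate 1 the lowest for both.

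Foxa1 and Foxa2, forkhead pioneer factors, and Lmx1a and Lmx1b, LIM homeodomain factors, specify the progenitors and stay on in the adult neurons. Foxa1 had a lowest, median and highest value of 269, 345 and 420.0 normalised reads in intact mice, 237, 279.5 and 329 in AAV-GFP, and 287, 315 and 381 in AAV-SIRT3. Foxa2 had 115, 152 and 197 in intact mice, 98.4, 112 and 181 in AAV-GFP, and 107, 145 and 188.5 in AAV-SIRT3. In AAV-GFP, 5 of the 6 Foxa2 libraries lay at or below 113.2, with replicate 2 far above them. Lmx1a had 147, 217 and 226 in intact mice, 132, 173 and 209 in AAV-GFP, and 122, 197 and 207 in AAV-SIRT3. Lmx1b had 230.3, 349 and 495 in intact mice, 248, 324 and 381 in AAV-GFP, and 275, 341 and 369 in AAV-SIRT3. The 3 groups overlapped for all 4 genes, and the intact libraries of Lmx1b spanned a wider range than either virus group.

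Sox6, an SRY-related factor of nigral neurons and of oligodendrocyte precursors, had a lowest, median and highest value of 1188, 1362 and 1430.1 normalised reads in intact mice, 1086, 1347 and 1452 in AAV-GFP, and 1038, 1169 and 1252 in AAV-SIRT3. Of the 6 AAV-SIRT3 libraries, all lay below 5 of the 6 intact libraries, and the overlap came from intact replicate 5. The plot of the 9 factors by library gives every value.

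**Figure D2:**
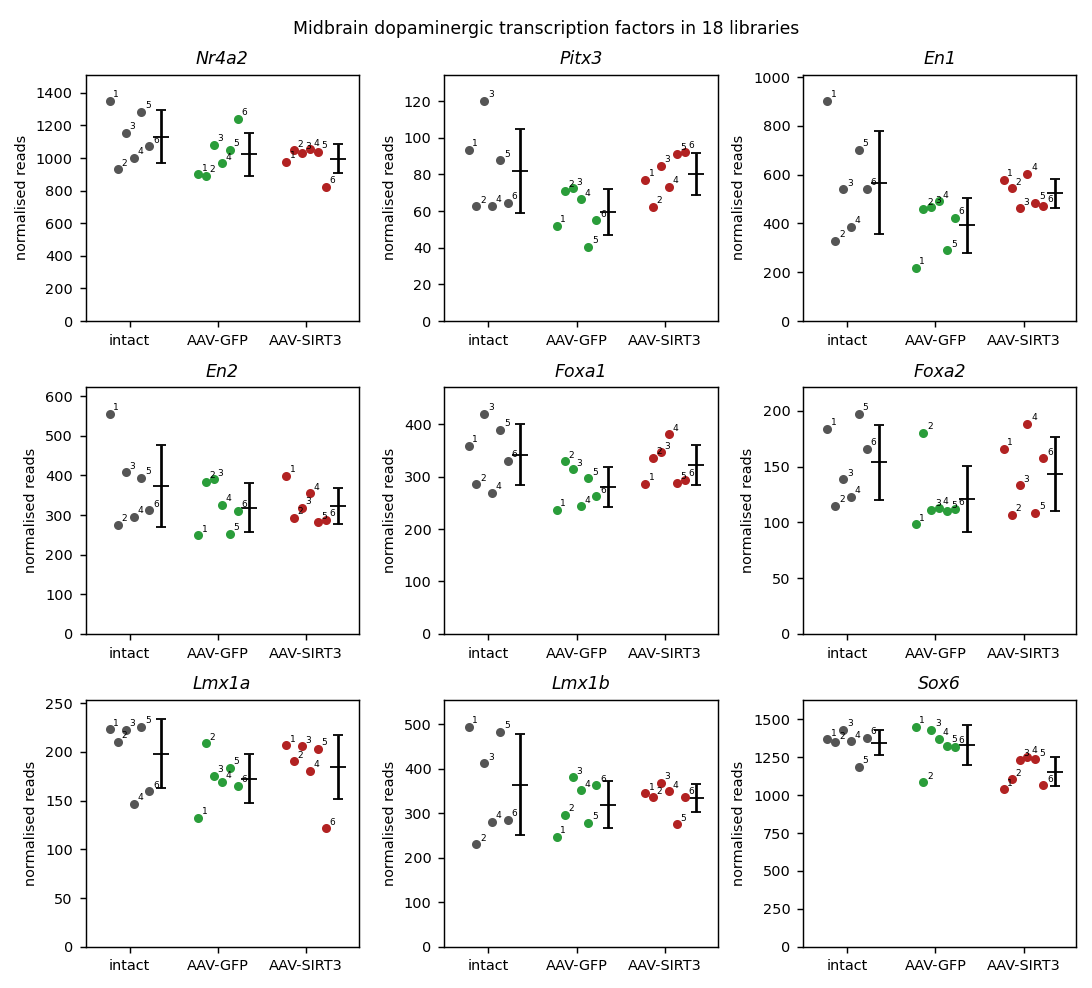
Normalised reads of each factor in the 18 libraries, with the replicate number beside each point and the group mean with its SD as a bar (n = 6 per group); every vertical axis starts at 0. All 3 groups overlap for every factor, and the AAV-SIRT3 points of Sox6 sit between 1038 and 1252.

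In the comparison of AAV-GFP with intact mice, virus, its injection, GFP and any difference in the tissue taken cannot be told apart. All 9 factors had lower mean log2 values in AAV-GFP, and 0 of them passed the test (limma, Benjamini-Hochberg adjusted p from 0.184 to 0.912; 1.84% of all genes tested passed, 1.02% as lower). Their log2 fold changes ran from -0.51 to -0.02 with a median of -0.21, against a median of 0.0007 over all genes. Without adjustment 3 of the 9 had a p under 0.05, as had 19.1% of all genes, and edgeR and DESeq2 on the recovered reads also called 0. The lowest values were those of En1 (log2 fold change -0.51, SE 0.208, adjusted p = 0.184, limma) and Pitx3 (-0.44, SE 0.183, adjusted p = 0.193, limma). Foxa2 stood at -0.35, Foxa1 at -0.28, En2 at -0.21, Lmx1a at -0.19, Lmx1b at -0.15, Nr4a2 at -0.14 and Sox6 at -0.02. For Foxa1 the 95% interval ran from -0.52 to -0.04 and for Sox6 from -0.16 to 0.12.

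Thalamus, dopaminergic and anterior pituitary markers also differed between AAV-GFP and intact mice. Intact replicates 1, 3 and 5, with the lowest thalamus scores, also held the 3 highest intact values of Nr4a2, Pitx3, En2, Foxa1, Lmx1a and Lmx1b. Without those 3 libraries the log2 fold change against intact was 0.02 for Nr4a2, 0.10 for En2, 0.006 for Lmx1a and 0.26 for Lmx1b, so the direction of these 4 turned. With the dopaminergic marker score as a covariate, Pitx3 stood at 0.007 and En1 at 0.06. Both sets of values were measured in the same libraries, and the part of the markers in the differences was not tested. All 4 anterior pituitary markers that could be tested (Prl, Gh, Pomc and Cga) passed as lower in AAV-GFP than in intact, with a median log2 fold change of -3.60. Their summed level, with Pou1f1 and Pitx1, which were below the level tested, ran from 503 to 5257 normalised reads in intact mice, 88.5 to 499 in AAV-GFP and 56.2 to 597 in AAV-SIRT3, with Prl at 0 in some AAV-GFP libraries and Cga in some of both virus groups, and their part was not tested either. Pituitary scores of intact replicates 1 to 6 were 0.10, 1.44, 0.52, 1.08, -0.45 and -2.70. The mean log2 differences of the factors in these libraries were 0.33, -0.31, 0.17, -0.29, 0.215 and -0.11. In bulk tissue, fewer dopaminergic neurons in the sample and less RNA of these genes per neuron cannot be told apart.

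**Figure D3:**
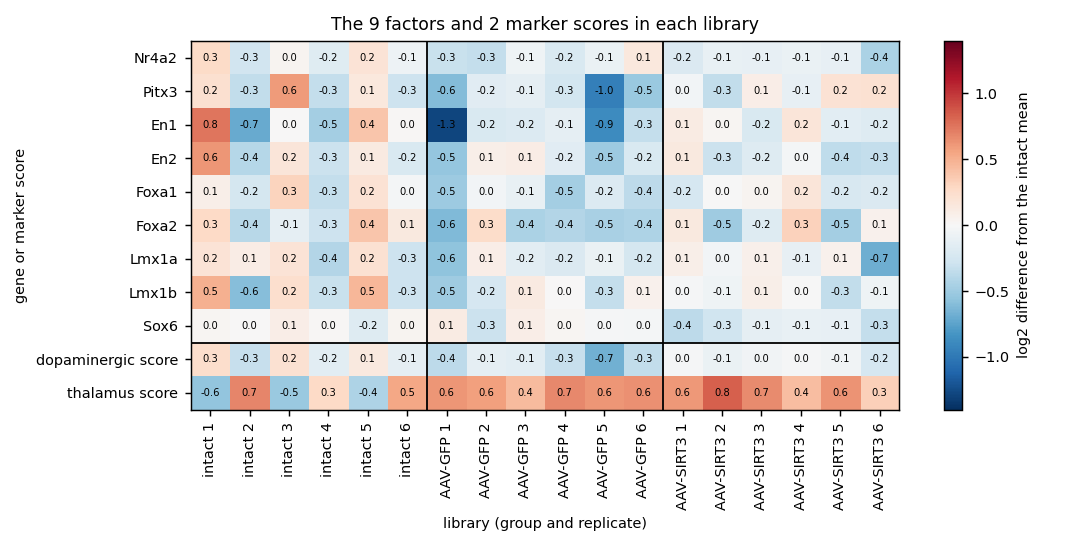
Difference of each factor, and of the dopaminergic and thalamus marker scores, from the intact mean in each of the 18 libraries, in log2 units (blue lower, red higher). The thalamus score is below 0 in intact replicates 1, 3 and 5. Most factors are above 0 there, with Foxa2 in replicate 3 and Sox6 in replicate 5 below 0. AAV-GFP replicates 1 and 5 hold the lowest En1 values.

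AAV-SIRT3 was set against AAV-GFP, which compares SIRT3 with GFP as the protein overexpressed. The sample titles name no GFP for the AAV-SIRT3 group, so what went with SIRT3 and what went with a lack of GFP cannot be told apart. Here 0 of the 9 factors passed the test (limma adjusted p from 0.187 to 0.95), where 0.113% of all genes passed, 0.0772% as lower. Without adjustment 3 of the 9 had a p under 0.05, as had 15.2% of all genes, and edgeR and DESeq2 called 0. Of the factors, 7 had higher and 2 lower mean log2 values in AAV-SIRT3, with a median of 0.09 (all genes -0.004). En1 had a mean of 524 ± 59.9 (SD, n = 6) normalised reads against 392 ± 111, and was higher in 32 of 36 library pairs (log2 fold change 0.47, 95% interval 0.04 to 0.90). Pitx3 had 80.3 ± 11.5 against 59.6 ± 12.6 and was higher in 33 of 36 pairs (0.44, 95% interval 0.06 to 0.82). Their limma adjusted p-values were 0.288 and 0.266, and the AAV-GFP libraries are shared with the comparison against intact, so the lower values there and the higher values here rest on the same 6 libraries.

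Foxa2 stood at 0.24, Foxa1 at 0.20, Lmx1a at 0.09, Lmx1b at 0.08, En2 at 0.03 and Nr4a2 at -0.03 in the same comparison. Sox6 was the one factor with a lower value of some size, at 1155 ± 97.1 (SD, n = 6) normalised reads against 1331 ± 131 (log2 fold change -0.20, 95% interval -0.34 to -0.06, limma adjusted p = 0.187). It was higher in AAV-SIRT3 in 4 of 36 library pairs. Without AAV-GFP replicate 2, its lowest AAV-GFP library, Sox6 passed (-0.26, adjusted p = 0.0222); the same step raised the number of all genes called from 22 to 861.

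In the comparison of AAV-SIRT3 with intact mice, Sox6 alone among the 9 factors passed the test and was lower. Its mean of 1155 ± 97.1 normalised reads against 1345 ± 82.3 (SD, n = 6) was a difference of -14.1% (log2 fold change -0.22, SE 0.068, 95% interval -0.36 to -0.08, limma adjusted p = 0.0246). It was higher in AAV-SIRT3 in 3 of 36 library pairs. In this comparison 21.7% of all genes passed, 10.3% as lower, so 1 of 9 factors passing as lower is a share near the background. Without adjustment 1 of the 9 had a p under 0.05, as had 34.9% of all genes. The other 8 had log2 fold changes from -0.18 (Nr4a2, adjusted p = 0.176, and En2, adjusted p = 0.431) to 0.002 (Pitx3, adjusted p = 0.996), and the median of the 9 was -0.10 (all genes -0.005). The 4 pituitary markers (median -3.23), 2 of 7 choroid plexus markers (median of the 7 -1.12) and 2 of 3 endothelial markers, Cldn5 (-0.42) and Pecam1 (-0.35), also passed as lower here (limma). Passing as higher were 5 of 6 thalamus markers (median of the 6 0.65), 2 of 6 microglial markers, and 1 each of the cerebellar, nigral GABAergic and pan-neuronal markers. The part of all these markers in the Sox6 difference was not tested. En1 stood at -0.04, with a 95% interval from -0.47 to 0.39 that leaves room for changes in either direction.

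The Sox6 call was lost without intact replicate 3 (-0.20, adjusted p = 0.056), AAV-SIRT3 replicate 1 (-0.19, adjusted p = 0.0584) or AAV-SIRT3 replicate 6 (-0.20, adjusted p = 0.0565), and it held without each of the other 15 libraries. It was also lost without the 3 intact libraries of low thalamus score (-0.24, adjusted p = 0.0726). In that setting En1 (0.35), En2 (0.12), Foxa1 (0.12), Foxa2 (0.08), Lmx1a (0.09) and Lmx1b (0.34) had values above 0 and did not pass.

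Sox6 has a long total of annotated exon, and genes with as much exon were read lower in AAV-SIRT3 than in intact as a class. With 14832 bases of exon, Sox6 lies at percentile 97.8 of the 18824 genes tested that have a length, while the other factors lie between percentiles 14.6 (Pitx3) and 63.6 (Lmx1b). Of the 424 genes at least as long, 224 (52.8%) were called lower in AAV-SIRT3 than in intact (10.3% of all genes) and 2 higher. Their median log2 fold change was -0.18, beside the -0.22 of Sox6. In AAV-GFP against intact 6.13% of them were called lower (1.02% of all genes), with a median of -0.10, beside the -0.02 of Sox6. Between the virus groups 0.472% were called lower (0.0772% of all genes), with a median of -0.08, beside the -0.20 of Sox6. Within each library the log2 difference of every gene from its mean over the 18 libraries was ranked against exon length (Spearman's rho, over genes that are not independent replicates). This rho, whose sign is relative to the other libraries, ran from 0.06 to 0.17 in the intact libraries and from -0.29 to -0.02 in the AAV-SIRT3 libraries. With trends of length and GC content removed from each library, Sox6 stood at -0.06 in AAV-SIRT3 against intact (limma adjusted p = 0.457). In AAV-GFP against intact it stood at 0.07 in that setting (limma adjusted p = 0.531). Between the virus groups it ran from -0.21 to -0.13 over 16 alternative settings, this one included. The part of length in these differences was not tested. Summed oligodendrocyte precursor markers (Pdgfra, Cspg4, C1ql1, Matn4 and Neu4, none at 0), for cells that also use Sox6, ran from 7490 to 8382 in intact and from 7214 to 8090 in AAV-SIRT3, and 0 of the 5 passed; their part in the difference was not tested.

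**Figure D4:**
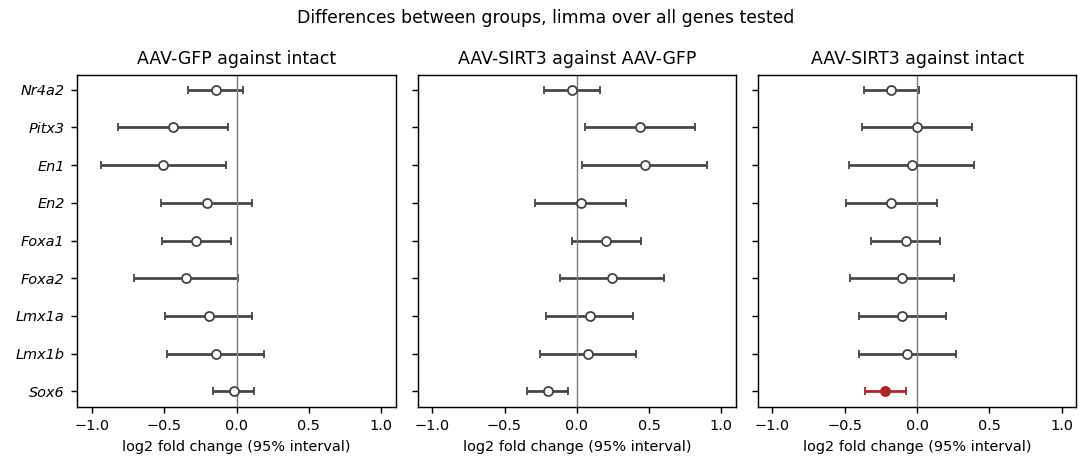
Log2 fold change of each factor in the 3 comparisons (limma, all 18 libraries in one model), with 95% intervals; a filled red point passed the adjusted p threshold of 0.05 and open points did not. The only filled point is Sox6 in AAV-SIRT3 against intact, at -0.22, and in the comparisons that share the AAV-GFP libraries En1 lies at -0.51 and 0.47 and Pitx3 at -0.44 and 0.44.

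Most pairs of factors had positive correlations between mice of a group, but less uniformly in AAV-SIRT3 and not with Sox6. Of the 28 pairs without Sox6, 28 had Pearson's r above 0 within intact (median 0.73), 26 within AAV-GFP (median 0.53) and 18 within AAV-SIRT3 (median 0.19, lowest -0.69 for Pitx3 with En1); with 6 mice each these are descriptions, and the difference between groups was not tested. The intact libraries of low thalamus score (replicates 1, 3 and 5) held the highest intact values of Nr4a2, Pitx3, En2, Foxa1, Lmx1a and Lmx1b. The part of that split in the intact correlations was not tested. After removal of group means, 29 of the 36 pairs had Pearson's r above 0 over the 18 libraries, with a median of 0.48. Pairs were tested by permutation within groups (100000 resamples, two-sided, adjusted over the 36 pairs), and 6 passed with Pearson's r and 7 with Spearman's rho. The closest pair was En1 and En2 (r = 0.87, permutation p = 6e-05, adjusted 0.00216; rho = 0.81, adjusted permutation p = 0.0223), with r = 0.84 without the 2 libraries farthest from the median of En1 and r = 0.92, 0.88 and 0.71 within intact, AAV-GFP and AAV-SIRT3. Lmx1b followed En1 (r = 0.83, adjusted permutation p = 0.00522; rho = 0.78, adjusted permutation p = 0.0227; r = 0.74 without the 2 farthest libraries), though r within AAV-SIRT3 was 0.20.

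The other pairs past the threshold were En2 with Lmx1b (r = 0.80, adjusted permutation p = 0.0148; rho = 0.80, adjusted permutation p = 0.0227), Nr4a2 with Lmx1b (r = 0.72, adjusted permutation p = 0.0396; rho = 0.70, adjusted permutation p = 0.0409), En2 with Foxa2 (r = 0.65, adjusted permutation p = 0.0396; rho = 0.63, adjusted permutation p = 0.0424) and En1 with Foxa2 (r = 0.62, adjusted permutation p = 0.0439; rho = 0.64, adjusted permutation p = 0.036). Without the 2 farthest libraries r was 0.69, 0.72, 0.59 and 0.53 in that order. Nr4a2 and Lmx1b had r = 0.97 within intact, 0.63 within AAV-GFP and -0.08 within AAV-SIRT3. Pitx3 with En2 passed by rank only (rho = 0.70, adjusted permutation p = 0.036; r = 0.65, adjusted permutation p = 0.0649), with r = -0.27 within AAV-SIRT3. Of the 8 pairs with Sox6, 0 passed and 1 had r above 0, from -0.54 (Foxa2, adjusted permutation p = 0.0943) to 0.17 (Nr4a2, adjusted permutation p = 0.591). The libraries differ in depth and in the tissue dissected, as the thalamus, choroid plexus and serotonergic markers show. The part of these differences in the correlations was not tested. The mean of the 4 dopaminergic markers followed some of the factors too. With that score r was 0.86 for En2 (rho 0.91), 0.78 for Pitx3 (rho 0.76), 0.73 for En1 (rho 0.71) and 0.73 for Lmx1b (rho 0.73), with adjusted permutation p-values of 0.00117, 0.00904, 0.0218 and 0.0283 for r and 0.00045, 0.011, 0.0135 and 0.0237 for rho over 9 relations chosen after the data were seen, and r = 0.82, 0.69, 0.75 and 0.57 without the 2 farthest libraries. By rank Lmx1a (rho = 0.68, adjusted permutation p = 0.0135) and Foxa1 (rho = 0.62, adjusted permutation p = 0.0288) passed too. Within AAV-SIRT3 r with the score was -0.33 for Pitx3 and 0.03 for Lmx1b. Nr4a2 passed by neither measure (r = 0.49, adjusted permutation p = 0.0944, and rho = 0.48, adjusted permutation p = 0.0917). Its r was 0.27 without the 2 farthest libraries and -0.21 within AAV-GFP. Foxa2 passed by neither measure too (r = 0.47, adjusted permutation p = 0.0787, and rho = 0.49, adjusted permutation p = 0.0617). For Sox6 r with the score was -0.08 (adjusted permutation p = 0.771).

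Markers of serotonergic neurons of the raphe, which also use Lmx1b and the engrailed genes, set 3 libraries apart. The summed level of Tph2, Slc6a4 and Fev, none at 0, ran from 240.2 to 9819 normalised reads in intact mice, 1328 to 2913 in AAV-GFP and 66.7 to 2201 in AAV-SIRT3, and 0 of the 3 passed in any comparison (limma). Intact replicate 1, with the highest level and a score of 2.58 (mean log2 difference from the intact mean), held the highest En1, En2 and Lmx1b values of all libraries. Intact replicate 2, at -2.45, held the lowest intact values of the same 3 genes, and AAV-SIRT3 replicate 5, at -4.22, the lowest Lmx1b value of its group. Without these 3 libraries r was 0.80 for En1 with En2, 0.73 for En1 with Lmx1b, 0.68 for En2 with Lmx1b and 0.65 for Nr4a2 with Lmx1b, and 27 of the 36 pairs had r above 0; this setting was added after the data were seen.

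**Figure D5:**
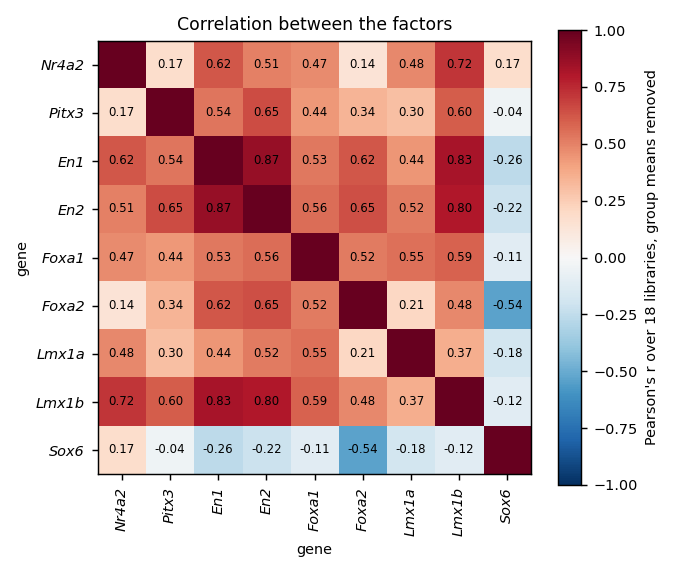
Pearson's r between each pair of factors over 18 libraries after removal of group means, with red for positive and blue for negative values. The block of En1, En2 and Lmx1b holds the highest values, from 0.80 to 0.87, and the row of Sox6 is mostly below 0.

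The genes most like each factor were those with the highest Pearson's r over the 18 libraries, group means removed, among 15244 genes with a mean of at least 50 normalised reads. For Pitx3 they were Abhd16a (0.85), Ddc (0.82), the enzyme that makes dopamine from L-DOPA, and Th (0.82), the rate-limiting enzyme of dopamine synthesis. For En2 they were Slc18a2 (0.91), the vesicular monoamine transporter, Ntn1 (0.91), an axon guidance cue, and Cat (0.90), catalase. Ntn1 was also among the 3 closest for En1 (0.87, after Snrpd3 at 0.89 and Phyhipl at 0.88) and Lmx1b (0.83, after Ccdc85c at 0.85 and Bend7 at 0.84). For Nr4a2 they were Spred2 (0.86), Traf3 (0.85) and Mrtfa (0.84), for Foxa1 Rcn2 (0.82), Rfk (0.79) and 5033406O09Rik (0.77), and for Foxa2 Kcnj14 (0.82), Gm10684 (0.80) and Mrps27 (0.77). For Lmx1a they were Prkd1 (0.83), Zfp36l2 (0.79) and Emx2os (0.77). Sox6 was closest to Marchf1 (0.91), D5Ertd579e (0.87) and Cux1 (0.86). The latter 2 have 18420 and 20024 bases of exon, at percentiles 99.2 and 99.4 of length, and no length is given here for Marchf1.

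Of 12 dopaminergic genes downstream of the factors, 11 had lower mean log2 values in AAV-GFP than in intact and 3 of the 12 passed, all lower, with a median of -0.28; over all genes 1.84% passed, 1.02% as lower. Slc6a3, the dopamine transporter, had a lowest, median and highest value of 9283, 11103 and 12867 normalised reads in intact mice, 6087, 8404 and 9172 in AAV-GFP and 7743, 10656 and 11081 in AAV-SIRT3. The AAV-GFP values of Slc6a3 all lay below the intact values (log2 fold change -0.44, SE 0.0987, limma adjusted p = 0.0263), and so did those of Ret, the GDNF receptor (-0.30, limma adjusted p = 0.0214), and Dlk1 (-0.28, limma adjusted p = 0.0332). Over all genes 1.86% had groups that did not overlap in this comparison. Without intact replicate 3, intact replicate 5 or AAV-GFP replicate 5, Slc6a3 (-0.39, -0.41 and -0.36) and Ret (-0.27 in each) did not pass. Dlk1 did not pass without these 3 libraries (-0.22, -0.26 and -0.28) or without intact replicate 4 (-0.28), AAV-GFP replicate 2 (-0.28) or AAV-GFP replicate 3 (-0.28). With the thalamus score as a covariate Slc6a3 stood at -0.29, Ret at -0.22 and Dlk1 at -0.15, and 0 of the 3 passed.

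Th had 4623, 5679 and 6637 normalised reads as lowest, median and highest value in intact mice, 3673, 4686 and 5429 in AAV-GFP and 5448, 5763 and 5938 in AAV-SIRT3. Every AAV-SIRT3 library lay above every AAV-GFP library, as for 0.751% of all genes in that comparison, but the difference missed the adjusted threshold (0.30, limma adjusted p = 0.122). Against intact Th stood at -0.28 in AAV-GFP (limma adjusted p = 0.0755) and at 0.02 in AAV-SIRT3 (limma adjusted p = 0.908). Without AAV-GFP replicate 2, Th passed between the virus groups (0.34, limma adjusted p = 0.0294), as did Slc6a3 (0.37, limma adjusted p = 0.0463), and without intact replicate 2 Th passed between AAV-GFP and intact (-0.34, limma adjusted p = 0.0251). Th also passed between AAV-GFP and intact with DESeq2 (-0.28, adjusted p = 0.0226), with length and GC trends removed (-0.31, limma adjusted p = 0.0447) and without the 2 libraries of high choroid plexus score (-0.27, limma adjusted p = 0.0434). Of the 12 genes, 10 had higher mean log2 values in AAV-SIRT3 than in AAV-GFP and 0 passed with limma (5 at an unadjusted p under 0.05, as had 15.2% of all genes), while DESeq2 called Th (0.29) and Slc6a3 (0.33). Kcnj6, the GIRK2 potassium channel, was the only one of the 12 to pass against intact in AAV-SIRT3, where it was lower (-0.66, SE 0.143, limma adjusted p = 0.00324) and 10.3% of all genes were called lower. Its mean was 605 ± 81.0 (SD, n = 6) normalised reads in intact mice, 438 ± 84.6 in AAV-GFP and 389 ± 103 in AAV-SIRT3. The lower level was thus seen in both virus groups, though it did not pass in AAV-GFP.

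Among 11 partners and cofactors, retinoid X receptors, corepressors, Ldb1 and Pbx proteins, 0 passed in AAV-GFP against intact or between the virus groups with limma. In each, 1 of the 11 had an unadjusted p under 0.05, beside 19.1% and 15.2% of all genes. In AAV-SIRT3 against intact, 1 of the 11 passed, where 11.3% of all genes were called higher and 10.3% lower. This was Rxrb, a retinoid X receptor, which rose (0.22, SE 0.0427, limma adjusted p = 0.00177), with groups that did not overlap, as for 9.33% of all genes. Of 7 close relatives that were read, 1 passed in 1 comparison, AAV-SIRT3 against intact, where 21.7% of all genes passed. Lhx9, a LIM homeodomain gene, rose there (0.51, limma adjusted p = 0.0215), though not without intact replicate 3 (0.43) or 5 (0.43). Lhx9 is read in thalamus, and with the thalamus score as a covariate its value was 0.05. Pitx1 and Foxa3 were below the level tested.

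Of 20 other regulators of midbrain development, 18 were tested and Wnt1 and Fgf8 were not. In AAV-GFP against intact, where 1.02% of all genes were called lower, 2 of the 18 passed, both lower. They were Pax5 (-1.28, limma adjusted p = 0.0206), a midbrain and hindbrain boundary gene, and Satb1, a chromatin organiser (-0.20, limma adjusted p = 0.0493). Pax5 did not pass without AAV-GFP replicate 5 (-1.18), without the 3 intact libraries of low thalamus score (-0.75), or with the thalamus (-0.68) or dopaminergic score (-0.58) as a covariate. With length and GC trends removed Satb1 stood at -0.0903 (limma adjusted p = 0.419). Satb1 kept its call without intact replicate 2, AAV-GFP replicate 4, AAV-SIRT3 replicate 4 or AAV-SIRT3 replicate 6 and lost it without any 1 of the other 14 libraries (-0.22 to -0.17 over all 18 omissions). Gbx2, a homeobox gene of hindbrain and thalamus, rose in AAV-SIRT3 against intact (0.96, limma adjusted p = 0.00613) and Tcf4, a basic helix-loop-helix factor, fell (-0.29, limma adjusted p = 0.00293). These were 2 of 18, where 11.3% of all genes were called higher and 10.3% lower. Gbx2 stood at 0.20 with the thalamus score as a covariate and Tcf4 at -0.04 with length and GC trends removed, and neither passed. Between the virus groups 0 of the 18 passed with limma, with 2 at an unadjusted p under 0.05, as had 15.2% of all genes.

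Of 7 genes of the Sox6 side of the nigra, 0 passed in AAV-GFP against intact and 2 were lower in AAV-SIRT3 against intact, where 10.3% of all genes were called lower: Vcan, a matrix proteoglycan (-0.22, limma adjusted p = 0.00667), and Atp2a3, a calcium pump (-0.29, limma adjusted p = 0.0493). Vcan stood at -0.07 and did not pass with length and GC trends removed, and Atp2a3 kept its call without intact replicate 6, AAV-GFP replicate 2, AAV-GFP replicate 5 or AAV-SIRT3 replicate 1 and lost it without any 1 of the other 14 libraries (-0.34 to -0.24 over all 18 omissions). Of 7 genes of the Otx2 side, Lpl, lipoprotein lipase, rose in AAV-GFP against intact (0.52, limma adjusted p = 0.0228), where 0.823% of all genes were called higher. Lpl did not pass without AAV-GFP replicate 3 (0.49) or 5 (0.50). In AAV-SIRT3 against intact, Grp, a neuropeptide, rose (0.32, limma adjusted p = 0.0335) and Adcyap1, another neuropeptide, fell (-0.22, limma adjusted p = 0.0105). Of all genes 11.3% were called higher there and 10.3% lower. Grp lost its call without any 1 of intact replicates 1, 2 and 3 and AAV-SIRT3 replicates 1, 2, 4 and 6 (0.26 to 0.37 over all 18 omissions). With the thalamus score as a covariate Atp2a3 (-0.19), Lpl (0.61), Grp (0.22) and Adcyap1 (-0.15) did not pass. Neither subtype list had a member that passed between the virus groups with limma (2 and 1 at an unadjusted p under 0.05, as had 15.2% of all genes).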

How the data were processed

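Poly-A RNA of 18 mouse substantia nigra samples was sequenced in pairs of 100 bp with a stranded kit, per the labels' protocols, which give tissue at 3 months of age. Groups and replicate numbers came from the sample titles, and 0 columns were left without a sample. Each deposited value is a signal of 1 gene: read counts from HTSeq divided by 1 DESeq2 size factor per library, per the name of the deposited table. HISAT2 2.1.0, DESeq2 1.34.0 and build mm10 are named in the submitters' processing notes; the annotation and strand setting are not given in the sources used here. Whole reads were recovered from the steps of the values (100% whole, tolerance 1e-06), and 1 row named None (0.000205% of all values) was left out.

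Values were tested as log2(value + 1) with limma 3.58.1 (trend in the prior variance) in R 4.3.3 on 19442 genes with at least 10 in at least 6 of 18 libraries, with all 3 groups in one model and Benjamini-Hochberg adjustment over all genes at 0.05. That scale understates the change of low genes. Alternatives were edgeR 4.0.16 and DESeq2 1.42.0 on recovered reads, TMM factors, quantile normalisation, pseudocounts of 0.5 and 10, other filters, 2 groups alone, a replicate block, length and GC trends removed (18824 genes with a GENCODE M21 length), marker scores as covariates, and each library left out. Leaving out the 3 or 2 libraries with unusual marker scores, and correlations with the dopaminergic score or without 3 libraries of outlying serotonergic score, were added after seeing the data. The fit was tested on simulated data. The factors and gene lists were chosen with earlier results of these data known. Named are the 9 factors, up to 5 called members of each list by size of change, Th and Slc6a3, and the 3 genes most like each factor; other names are marked. Statements on depth cover counting error only, because the reads carry no molecular identifiers.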

Additional observations from a re-analysis of the deposited data

Results flagged for a closer look

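In 33 groups of 6 values (the 9 factors, Th and Slc6a3 in 3 groups), 8 held a library far from the other 5 by Dixon's criterion at the 95% level; chance alone gives about 1 in 20, or 1.65 groups. AAV-SIRT3 replicate 6 was low in 3 of them: Nr4a2 at 824 normalised reads (the nearest other library 976), Lmx1a at 122 (181) and Slc6a3 at 7743 (10540). AAV-GFP replicate 2 was high for Foxa2, at 181 (113), and low for Sox6, at 1086 (1321), and its log2 differences from the mean of the 18 libraries had the lowest rank correlation with exon length of all libraries, at -0.30 across genes. AAV-GFP replicate 5, one of the libraries with high choroid plexus markers, was low for Slc6a3 at 6087 (8113). AAV-SIRT3 replicate 5 was low for Lmx1b at 275 (336). It was also the lowest library for the serotonergic markers Tph2, at 50.5 normalised reads, and Slc6a4, at 5.38, against group medians of 1006 and 493, and had the lowest subthalamic marker score of its group, at -0.39; whether these go together was not tested. Intact replicate 5 was low for Sox6 at 1188 (1350).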

How the results depend on the processing

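Of 918 values of the 9 factors over 34 alternative settings, 851 kept their direction and their side of the threshold, 7 lost the call, 1 gained it and 59 changed sign; where no cause follows from the setting itself, the cause was not tested. No factor passed in AAV-GFP against intact in any setting run. The Sox6 call in AAV-SIRT3 against intact was lost, leaving 0 factors called, with length and GC trends removed (-0.06), with the thalamus score as a covariate (-0.24) and without the 3 intact libraries of low thalamus score (-0.24). Leaving out 1 library each gave 0 to 1 factors in that comparison and in AAV-SIRT3 against AAV-GFP. Over the longest transcript Sox6 stood at 155 normalised reads per kb in intact. The 36 pairs kept 29 values of r above 0 without centring and without the 2 farthest libraries.

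The numbers of all genes called moved more. In AAV-GFP against intact (358) they were 164 with no filter on low values, 1000 with DESeq2, 199 with only the 2 groups compared, 32 with the thalamus score and 5 with the dopaminergic score as a covariate, 10 without the 3 intact libraries of low thalamus score, and 129 to 686 without 1 library each. In AAV-SIRT3 against AAV-GFP (22) they were 304 with DESeq2, 8 with only the 2 groups compared, 191 with length and GC trends removed, 3 with the dopaminergic score as a covariate, 8 without the 2 libraries of high choroid plexus score, and 5 to 861 without 1 library each. The 5 came without AAV-SIRT3 replicate 5 and the 861 without AAV-GFP replicate 2. In AAV-SIRT3 against intact (4214) they were 1985 with the thalamus score as a covariate, 1686 without the 3 intact libraries and 3279 to 4633 without 1 library each.

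Values that changed sign had not passed in the first place and did not pass afterwards. In AAV-GFP against intact they were Sox6 at 0.0698 with length and GC trends removed, Nr4a2 at 0.00234, En2 at 0.14 and Lmx1b at 0.28 with the thalamus score as a covariate, and Nr4a2 at 0.0133, Pitx3 at 0.00695, En1 at 0.0557, En2 at 0.25, Lmx1a at 0.0346 and Lmx1b at 0.27 with the dopaminergic score as a covariate. Without the 3 intact libraries of low thalamus score they were Nr4a2 at 0.0235, En2 at 0.0964, Lmx1a at 0.00564 and Lmx1b at 0.26. In AAV-SIRT3 against AAV-GFP they were Nr4a2 at 0.00246 with length and GC trends removed, En2 at -0.32, Lmx1a at -0.0836 and Lmx1b at -0.24 with the dopaminergic score, and En2 at -0.0333 without the 2 libraries of high choroid plexus score.

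In AAV-SIRT3 against intact, Pitx3 and Th lay at 0.002 and 0.02. Th turned to -0.00111 with quantile normalisation, -0.000603 with edgeR, -0.00586 with length and GC trends removed and -0.0426 without the 2 libraries of high choroid plexus score. Pitx3 turned to -0.000933 with a pseudocount of 10, -0.0395 with edgeR, -0.0337 with DESeq2, -0.0357 with length and GC trends removed and -0.0663 without the 2 libraries of high choroid plexus score. With the thalamus score as a covariate En1 stood at 0.36, En2 at 0.16, Foxa1 at 0.12, Foxa2 at 0.15, Lmx1a at 0.00460, Lmx1b at 0.36 and Slc6a3 at 0.0371, and without the 3 intact libraries at 0.35, 0.12, 0.12, 0.0769, 0.0945, 0.34 and 0.0576. With the dopaminergic score En1 stood at 0.0959 and Lmx1b at 0.0320. Leaving out 1 library each turned the sign of Sox6 in AAV-GFP against intact (-0.0549 to 0.0378), of Nr4a2 (-0.0711 to 0.0240) and En2 (-0.0387 to 0.0908) in AAV-SIRT3 against AAV-GFP, and in AAV-SIRT3 against intact of Pitx3 (-0.0663 to 0.12), En1 (-0.18 to 0.11), Lmx1a (-0.18 to 0.0130), Lmx1b (-0.19 to 0.0336) and Th (-0.0426 to 0.0617).

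The same replicate numbers occur in each group, and nothing in the labels says that they mark a shared litter or day. Same-numbered libraries did not deviate together: correlations of their deviations ran from -0.10 to 0.06, -0.09 to 0.08 and -0.06 to 0.18 in the 3 comparisons, and 0, 0 and 1 of 6 libraries correlated best with their own number. With the replicate number as a block the counts of genes called were 372, 13 and 3923, and with the block and length and GC trends removed 440, 35 and 4237; with the block and trends removed 0 factors were called, Sox6 stood at 0.0698 and Nr4a2 at 0.00246 in the comparisons named above for them, and in AAV-SIRT3 against intact Pitx3 stood at -0.0357, Th at -0.00586 and Sox6 at -0.0624. Depth limits the low factor Pitx3 most, at a group mean of 59.6 to 81.9 normalised reads.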

Other observations

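Relatives and opponents of the factors that did not pass in any comparison are given here as values, named after their values were seen. Sox5, a close relative of Sox6, had group means of 1358, 1286 and 1188 normalised reads in intact, AAV-GFP and AAV-SIRT3 (log2 fold change of AAV-SIRT3 against intact -0.20, limma adjusted p = 0.0563). Nr4a1 and Nr4a3, activity-induced relatives of Nr4a2, had means of 994, 1116 and 874, and of 388, 361 and 318. Between the virus groups Nr4a1 stood at -0.36 (limma adjusted p = 0.278) and Nr4a3 at -0.17 (limma adjusted p = 0.698), beside -0.03 for Nr4a2. Otx2, which marks ventral tegmental neurons and is also strong in choroid plexus, had means of 342, 408 and 390.0.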
